A study of Homo sapiens with 6 samples.

Results

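The genes described here are 33 genes of cholesterol and fatty acid synthesis, out of 26899 genes in the reads table. They were chosen by name as enzymes of these pathways, their regulators and a few genes of sterol handling. Earlier results of these data were known when the list was chosen, so its shares beside those of all tested genes are descriptive. The 33 genes fall into a sterol branch of 18 enzymes, 5 regulators of SREBP, 3 genes of sterol handling and a fatty acid branch of 7 genes. The sterol branch holds 7 enzymes from acetyl-CoA to farnesyl diphosphate, the mevalonate arm, and 11 from squalene to cholesterol. All 33 were found in the table and all 33 had enough reads to be tested.

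In order to learn which transcripts depend on annexin A2, a phospholipid-binding protein encoded by ANXA2, 6 libraries of poly(A)-selected RNA were sequenced from HK-2 cells. HK-2 is an established human line of kidney proximal tubule origin, transformed with human papillomavirus 16 (HPV-16). All cells were grown with fetal bovine serum, which supplies cholesterol in lipoproteins, and plasmids were brought in by lipid transfection. The 3 control libraries are titled WT with the treatment wild type, but described as shCtrl, and the other 3 are titled ANXA2 knockdown and described as shANXA2. The hairpin sequence, the time after transfection and whether replicates were separate cultures are not given in the labels, so the p-values measure only the spread between these libraries, which may be technical.

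ANXA2 itself was at 1658, 1461 and 1675 CPM (counts-per-million, scaled between libraries by the TMM method of edgeR) in the libraries labelled shCtrl and at 1538, 1561 and 1519 CPM in those labelled shANXA2. The groups overlapped, with a log2 fold change of -0.05 and a standard error (SE) of 0.075 in the edgeR quasi-likelihood test (Benjamini-Hochberg adjusted p = 0.848). The 95% interval of the change ran from -14.33% to 8.286%. The targeted transcript was thus not measurably lower, so directions are given between libraries by label, shANXA2 against shCtrl. Library totals were 24231267 to 34561675 reads, with shCtrl 1 and shANXA2 3 the shallowest. Of the proximal tubule markers, PAX8 and GGT1 were abundant, whereas LRP2, CUBN, AQP1, ANPEP and HNF4A had at most 12 reads in any library. Markers of other cell types were summed in CPM of the library total, without TMM scaling. The 3 leukocyte genes in the table summed to 1.19 to 2.88 CPM in shCtrl and 2.22 to 4.17 CPM in shANXA2. Endothelial genes summed to at most 0.388 CPM. Fibroblast genes summed to 30.1 to 38.3 against 30.3 to 30.8 CPM and hepatocyte genes to 3.06 to 15 against 4.03 to 8.21 CPM. In bulk RNA, fewer cells expressing a gene and less RNA per cell cannot be told apart.

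Cholesterol is built from acetyl-CoA through mevalonate, isoprenoid diphosphates and squalene to lanosterol, and then through a chain of demethylations, reductions and isomerisations. When sterols run low in the endoplasmic reticulum, SCAP escorts the precursors of the SREBP transcription factors to the Golgi, where they are cut and released, and the INSIG proteins hold them back when sterols are plentiful. SREBP from SREBF2 acts mainly on sterol genes and SREBP from SREBF1 mainly on fatty acid genes, commonly together with NF-Y, which binds CCAAT boxes. Oxysterols act in the opposite sense through the LXR receptors, which switch on export genes such as ABCA1.

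The start regions of these genes were searched for boxes linked to this control. Promoter windows (from 250 bases before to 50 after each transcript start, RefSeq on GRCh38.p14) were matched for 29 of the 33 genes, and ACAT2, FDFT1, SQLE and FASN were not matched. A CCAAT box on either strand (CCAAT or ATTGG) was present in 20 of the 29 genes, in 13 of the 15 matched sterol enzymes and in 3 of the 6 matched fatty acid genes, against 39.7% of all genes with a window and 43.1% of those tested. One box each is shown for 5 sterol enzymes whose libraries separated by label in the results that follow, with the box in capitals, read on the strand of the gene. Distances are to the transcript start whose window held the box, and IDI1 and SC5D had windows at more than 1 start.
MSMO1, chr4:165327583-165327607, plus strand, box 76 bases before the start: actgcacagaCCAATcaccgcgccg
SC5D, chr11:121292705-121292729, plus strand, box 56 bases before the start: ccggtcgctgATTGGctggccgctc
IDI1, chr10:1048959-1048983, minus strand, box 87 bases before the start: ggcgcgagcgATTGGctgcgcggcc
MVD, chr16:88663162-88663186, minus strand, box 85 bases before the start: ctcgcacgggCCAATcctgtggtag
TM7SF2, chr11:65111788-65111812, plus strand, box 74 bases before the start: ccgagcgccgATTGGctggtgtgct
The window of PMVK, another separated enzyme, held no such box. The box was thus in genes that were lower (MSMO1, SC5D, IDI1) and in genes that were higher (MVD, TM7SF2) in the libraries labelled shANXA2. A sterol regulatory element written TCACNCCAC, searched on both strands, was found in 1 of the 29 genes, SREBF2, and in 1.39% of all genes. It is shown because SREBF2 encodes the factor that binds such elements.
SREBF2, chr22:41832962-41832990, plus strand, element 133 bases before the start: tgacgcgccaTCACCCCACgcaccgcttc
The E-box CACGTG, which SREBP can also bind, was present in 5 of the 29 genes (8.77% of all genes and 12.7% of those tested), and the GC box GGGCGG or its reverse complement in 28 of the 29 (48.3% of all genes and 77.1% of those tested). A match describes letters in the window and was not tested as a binding site.

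No member passed the test. The smallest adjusted p among the 33 was 0.599 (edgeR, Benjamini-Hochberg over all 15299 tested genes), and 0% of all tested genes were called. At an unadjusted p under 0.05, MVD and TM7SF2 were higher and SQLE, MSMO1, SC5D and ABCA1 lower. These 6 genes are 18.2% of the 33, against 8.18% of all tested genes (3.86% higher and 4.32% lower). DESeq2 called 0.115% of its genes (0.0112% lower) and none of the members, and limma-voom and limma-trend called none. Without the low-count filter edgeR called 0.613% of the genes and 1 member, SQLE.

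The libraries of the 2 labels did not overlap for 9 of the 33 genes, or 27.3%, against 15.6% of all tested genes (7.94% higher and 7.7% lower). PMVK, MVD, TM7SF2 and ELOVL6 were higher in every library labelled shANXA2, and IDI1, SQLE, MSMO1, SC5D and ABCA1 were lower in every one. Leaving out 1 library at a time gave 9 to 16 such genes, against 20% to 32% of all tested genes. Separation is easier with 1 library fewer, and the share of all tested genes rose above 15.6% each time. Without shANXA2 3 the count was 16 (29.7% of all tested genes), without shANXA2 2 it was 14 (25.5%) and without shCtrl 1 it was 13 (32%). Estimates were below 0 for 22 of the 33 genes (66.7%), against 51% of all tested genes, with a median log2 fold change of -0.05 against -0.01.

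**Figure D1:**
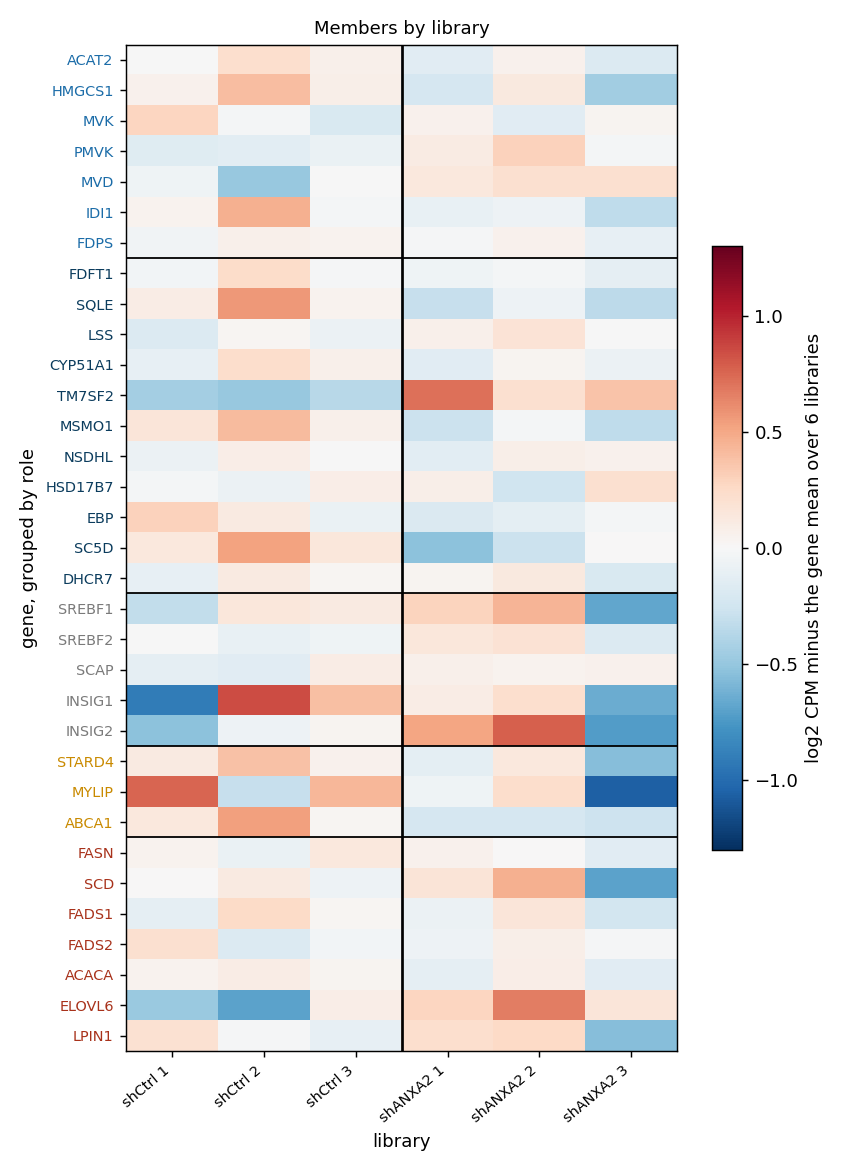
Each row is 1 of the 33 genes, ordered by role, and each column is 1 of the 6 libraries, and colour gives log2 CPM minus the mean of that gene over the 6 libraries. SQLE and MSMO1 are above their means in the 3 libraries labelled shCtrl and below them in those labelled shANXA2, whereas SCD and SREBF1 are lowest in shANXA2 3.

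The sterol branch held most of the separated genes. Of its 18 enzymes, 13 had estimates below 0, 3 were higher in every library labelled shANXA2 and 4 lower. The 7 separated enzymes are 38.9% of the branch, against 15.6% of all tested genes, and 72.2% of its estimates were below 0, against 51%. These shares describe a list chosen with earlier results of these data known, and their excess was not tested. The median log2 fold change was -0.09, and it was -0.04 without shCtrl 2 and -0.15 without shCtrl 3. Enzymes that separated lower and enzymes that separated higher were present in both arms. Summed over the 18 enzymes, the deposited FPKM values (fragments scaled for transcript length and depth) were 456.7, 504.8 and 451.1 in shCtrl and 422, 455.1 and 423.1 in shANXA2, and these sums overlapped. The 11 enzymes from squalene to cholesterol summed to 254.9, 283.8 and 240.2 FPKM in shCtrl and to 219.8, 236.2 and 228.9 FPKM in shANXA2. That sum was lower in each library labelled shANXA2, by a small margin between shCtrl 3 and shANXA2 2. EBP contributed most to that sum, at 91.83, 82.44 and 70.54 FPKM in shCtrl and 65.13, 68.12 and 73.78 FPKM in shANXA2. The EBP groups overlapped, so the separation of the sum does not speak for each enzyme. The mevalonate arm summed to 201.8, 221 and 211 against 202.3, 218.8 and 194.2 FPKM and overlapped.

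In the mevalonate arm, the first enzymes leaned lower without separating. ACAT2, which joins acetyl-CoA units, was at 131.2, 152.7 and 137.9 CPM in shCtrl and at 118.6, 136.5 and 116.3 CPM in shANXA2 (log2 fold change -0.18, SE 0.105, edgeR adjusted p = 0.647). HMGCS1, the cytosolic synthase that makes HMG-CoA, was at 24.72, 31.27 and 25.07 CPM against 20.37, 25.86 and 17.39 CPM (log2 fold change -0.35, SE 0.171, edgeR adjusted p = 0.615). For both genes a single library, shANXA2 2, reached into the shCtrl range. Without shANXA2 2 the HMGCS1 estimate was -0.51 and without shANXA2 3 it was -0.22, and the ACAT2 estimate was -0.12 without shCtrl 2.

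The kinases and the decarboxylase that turn mevalonate into isopentenyl diphosphate leaned the other way or not at all. MVK, the first kinase, overlapped at 20.95, 17.01 and 15.06 against 17.88, 15.54 and 17.7 CPM. PMVK, the second kinase, was at 32.71, 33.16 and 34.48 CPM in shCtrl and at 39.21, 44.82 and 35.88 CPM in shANXA2 (log2 fold change 0.26, SE 0.117, edgeR adjusted p = 0.61). Its groups did not overlap, but shANXA2 3 lay close to the highest control, and the estimate was 0.17 without shANXA2 2. MVD, the decarboxylase, was at 30.01, 22.24 and 31.24 CPM against 34.43, 36.1 and 36.09 CPM (log2 fold change 0.35, SE 0.143, edgeR adjusted p = 0.605), so its shANXA2 libraries lay close together and shCtrl 2 was low. Without shCtrl 2 the log2 fold change of MVD was 0.22.

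IDI1, which isomerises isopentenyl diphosphate to its reactive partner, was lower in every library labelled shANXA2, at 32.18, 42.8 and 30.63 CPM against 29.19, 29.8 and 24.83 CPM. Its log2 fold change of -0.33 (SE 0.153, edgeR adjusted p = 0.61) leaned on shCtrl 2 and was -0.17 without that library. FDPS, the farnesyl diphosphate synthase, was at 169.3, 182.5 and 180.6 against 172.6, 181.7 and 162.4 CPM, and its groups overlapped (log2 fold change -0.04, SE 0.0894).

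From squalene onward, 8 of the 11 enzymes had estimates below 0 and 3 above. FDFT1, squalene synthase, overlapped at 139.5, 168.6 and 141.3 against 137, 140.6 and 131.9 CPM (log2 fold change -0.13, SE 0.103). SQLE, squalene epoxidase and a rate-controlling step of the branch, was at 84.16, 116.5 and 81.25 CPM in shCtrl and at 64.23, 75.2 and 62.17 CPM in shANXA2. All 3 shANXA2 libraries lay below the lowest control, and shCtrl 2 stood well above the other controls. The log2 fold change was -0.48 with an SE of 0.152, and the change had a 95% interval from -43.58% to -9.364% (edgeR adjusted p = 0.599). Without shCtrl 2 the log2 fold change was -0.30. Without the low-count filter SQLE passed with an adjusted p of 0.0321 in edgeR, where 0.19% of all genes were called lower. That fit had infinite prior degrees of freedom, against 5.234 with the filter, so the spread was pooled over genes. In DESeq2 the adjusted p of SQLE was 0.327.

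LSS, which closes squalene epoxide into lanosterol, overlapped at 54.11, 62.38 and 58.1 against 63.97, 69.5 and 60.89 CPM (log2 fold change 0.15, SE 0.104). CYP51A1, the lanosterol demethylase, overlapped at 67.19, 84.77 and 75.31 against 64.91, 73.93 and 68.3 CPM (log2 fold change -0.13, SE 0.114). Without shCtrl 2 the estimates of FDFT1 and CYP51A1 were both -0.04.

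TM7SF2, a sterol reductase that acts after CYP51A1, had the largest positive estimate of the 33 genes. It had 89, 115 and 120 reads in shCtrl and 278, 188 and 184 reads in shANXA2, or 3.649, 3.518 and 3.852 CPM against 8.146, 5.694 and 6.373 CPM. The shCtrl libraries were within a narrow band and every shANXA2 library lay above it. The log2 fold change was 0.88 (SE 0.211, 95% interval of the change 31.83% to 155.2%, edgeR adjusted p = 0.599). Exons of TM7SF2 share positions with VPS51 on the same strand, a vesicle-tethering gene with 7224 reads over the 6 libraries against 974 of TM7SF2, and reads of that stretch could be counted for either. VPS51 had a log2 fold change of 0.20 (SE 0.112, edgeR adjusted p = 0.643), and its part in the TM7SF2 value was not tested. LBR, which carries the same reductase activity in the nuclear envelope, was at 55.71, 60.02 and 53.8 against 41.29, 40.52 and 58.81 CPM and overlapped (log2 fold change -0.27, SE 0.152).

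MSMO1, NSDHL and HSD17B7 act in turn to strip methyl groups from the sterol ring, and only the first separated by label. MSMO1 was at 43.99, 52.53 and 41.28 CPM in shCtrl and at 32.5, 38.86 and 31.41 CPM in shANXA2 (log2 fold change -0.42, SE 0.134, edgeR adjusted p = 0.599). Without shCtrl 2 the MSMO1 estimate was -0.314. NSDHL was at 52.31, 58.65 and 54.83 against 50.14, 57.9 and 57.22 CPM, with a 95% interval of the change from -15.52% to 17.57%. HSD17B7 was at 9.306, 8.994 and 10.05 against 10.02, 7.935 and 10.94 CPM, with an interval from -22.23% to 33.51%. The groups of NSDHL and HSD17B7 overlapped. A pseudogene of HSD17B7, HSD17B7P2, had 939 reads over the 6 libraries, and whether reads of the pair were mixed was not tested. The difference in response between MSMO1 and its partners was not tested.

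The last steps again held 1 separated gene. EBP, the sterol isomerase, was at 173.3, 152.6 and 132.3 against 123.7, 129.2 and 138.3 CPM, so shANXA2 3 reached into the control range (log2 fold change -0.23, SE 0.115, edgeR adjusted p = 0.625). The EBP estimate was -0.13 without shCtrl 1 and -0.32 without shCtrl 3. SC5D, the desaturase that follows it, was at 13.82, 18.11 and 13.93 CPM in shCtrl and at 8.674, 10.39 and 12.61 CPM in shANXA2 (log2 fold change -0.54, SE 0.187, edgeR adjusted p = 0.599). Every shANXA2 library of SC5D was below every control, the nearest being shANXA2 3. Without shCtrl 2 the SC5D estimate was -0.395. DHCR7, the final reductase, overlapped at 67.52, 78.68 and 73.74 against 74.64, 79.07 and 63.31 CPM, with an interval from -17.63% to 18.2%.

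**Figure D2:**
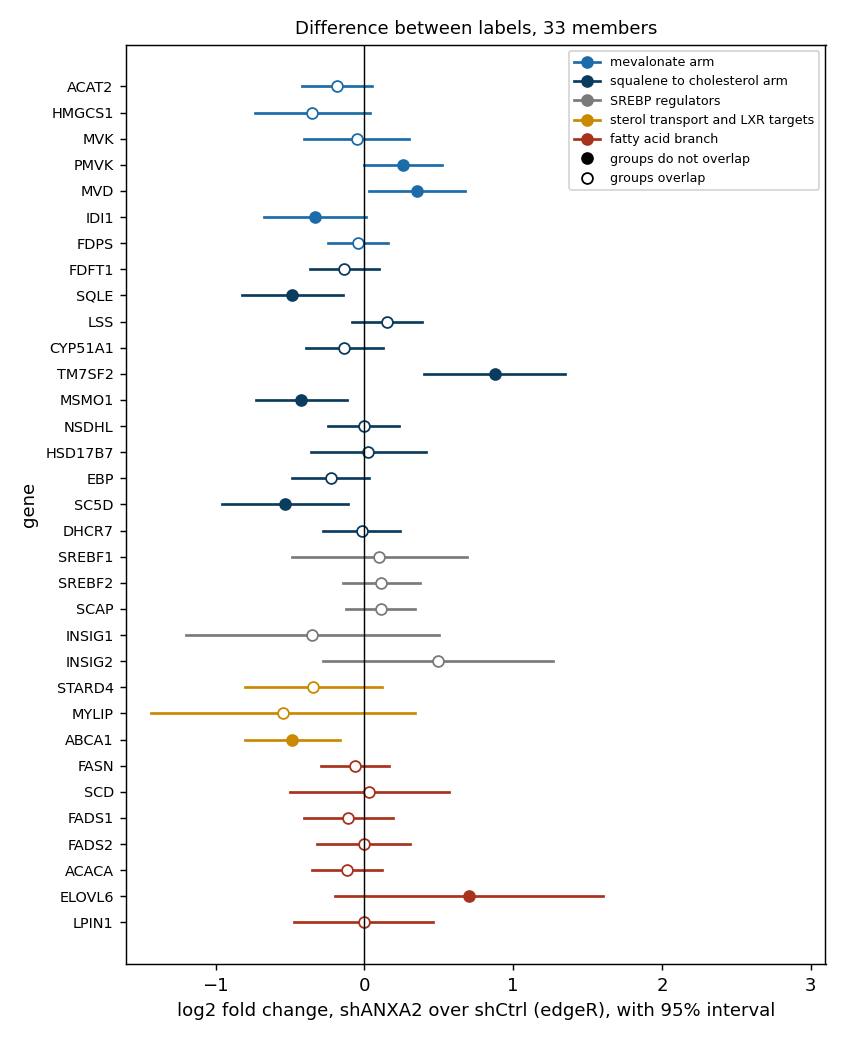
Points give the edgeR log2 fold change (shANXA2 over shCtrl) of each of the 33 genes with its 95% interval, coloured by role and filled where the libraries of the labels did not overlap. The filled points lie on both sides of 0, from -0.54 for SC5D to 0.88 for TM7SF2.

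None of the regulators of SREBP separated by label, and SREBF1, INSIG1 and INSIG2 spread widely within a label. SREBF2 was at 123.7, 115.7 and 118.9 CPM in shCtrl and at 137, 141.1 and 109.6 CPM in shANXA2, and SCAP, the escort of both precursors, was at 61.12, 59.44 and 70.59 against 69.13, 68.38 and 68.54 CPM. Both had a log2 fold change of 0.11 (SE 0.114 and 0.102) and overlapped. SREBF1 was at 25.58, 35.52 and 34.77 CPM against 39.24, 43.46 and 20.05 CPM. Its highest and lowest libraries both carried the label shANXA2, and the log2 fold change of 0.10 (SE 0.26) was 0.37 without shANXA2 3 and -0.10 without shANXA2 2.

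INSIG1, which retains SCAP and is itself a known SREBP target, was at 47.1, 159.7 and 116.1 CPM in shCtrl and at 94.33, 102.7 and 56.52 CPM in shANXA2. The controls alone spanned 3.39-fold. The log2 fold change of -0.35 (SE 0.378, edgeR adjusted p = 0.802) was 0.05 without shCtrl 2 and -0.70 without shCtrl 1. The lowest library of each label was also the shallowest of its label, and the part of depth in this was not tested. INSIG2, the related retention protein, was at 5.247, 7.25 and 7.801 against 10.9, 13.08 and 4.606 CPM (log2 fold change 0.49, SE 0.344), and again shANXA2 3 was lowest and the other 2 shANXA2 libraries were highest. Without shANXA2 3 the log2 fold change of INSIG2 was 0.82, and without shANXA2 2 it was 0.20.

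The 3 genes of sterol handling, ABCA1, STARD4 and MYLIP, had estimates below 0, with a median log2 fold change of -0.49. ABCA1, the exporter that loads cholesterol and phospholipid onto apolipoproteins and a known LXR target, was at 42.47, 55.74 and 39.29 CPM in shCtrl and at 33.11, 33.22 and 31.9 CPM in shANXA2. Its shANXA2 libraries lay within a narrow band below every control. The log2 fold change was -0.49 (SE 0.142, 95% interval of the change -42.74% to -10.9%, edgeR adjusted p = 0.599), and -0.32 without shCtrl 2. ABCA1, an LXR target, and SQLE, a SREBP target, thus had estimates of the same sign and similar size.

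STARD4, a cytosolic carrier of sterols and a SREBP target, was at 10.33, 12.36 and 9.887 against 8.703, 10.45 and 6.477 CPM and overlapped (log2 fold change -0.35, SE 0.205). Without shANXA2 3 the STARD4 estimate was -0.18, and without shANXA2 2 it was -0.51. MYLIP, a ubiquitin ligase induced through LXR that marks lipoprotein receptors for degradation, was at 4.263, 2.05 and 3.403 against 2.432, 2.968 and 1.212 CPM and overlapped (log2 fold change -0.54, SE 0.394). The MYLIP estimate was as large as that of SC5D, but it was -0.81 without shANXA2 2 and -0.26 without shANXA2 3.

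The fatty acid branch had a median log2 fold change of -0.01, and 1 of its 7 genes separated by label (14.3%, against 15.6% of all tested genes). Without shCtrl 2 the medians of the sterol and fatty acid branches were -0.042 and -0.025, and without shANXA2 1 they were -0.088 and -0.086, so the branches then differed little. FASN, fatty acid synthase, was at 143.6, 131.3 and 152.7 CPM in shCtrl and at 144.5, 139.4 and 125.7 CPM in shANXA2, with a 95% interval of the change from -18.16% to 12.1%. ACACA, which makes the malonyl-CoA that FASN extends, was at 50.83, 52.93 and 50.75 against 45.54, 52.3 and 44.64 CPM, with an interval from -21.74% to 8.668%. Both groups of libraries overlapped for these enzymes, and both intervals held 0.

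SCD, the desaturase that makes monounsaturated fatty acids, was at 268.8, 291.3 and 256.2 CPM in shCtrl and at 301.7, 368.9 and 165 CPM in shANXA2. Its controls lay close together, whereas the shANXA2 libraries held both the highest values and the lowest. The log2 fold change was 0.03 (SE 0.237), 0.30 without shANXA2 3 and -0.22 without shANXA2 2. LPIN1, a phosphatidate phosphatase of glycerolipid synthesis, had the same order among the shANXA2 libraries, at 26.61, 22.94 and 21.6 against 27.11, 27.83 and 15.86 CPM (log2 fold change -0.01, SE 0.208).

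FADS1 and FADS2, the desaturases of polyunsaturated fatty acids, are neighbours on chromosome 11 with exons that share positions on opposite strands, and no source used here says whether reads were counted by strand. FADS1 was at 121.5, 156.4 and 133.7 against 124.7, 146.2 and 111.2 CPM (95% interval of the change -24.55% to 14.15%). FADS2, which also shares exon positions with FEN1 on its own strand, was at 23.33, 17.84 and 19.68 against 19.31, 21.29 and 19.98 CPM (interval -19.72% to 23.73%). Neither separated by label. Exons of ACAT2, MVK, CYP51A1 and SREBF1 likewise share positions with protein-coding genes on the opposite strand (TCP1, MMAB, AKAP9 and RAI1), so reads of such pairs may be mixed if strand was ignored. ELOVL6, which lengthens saturated fatty acids, was the separated gene of the branch but rested on few reads, 19, 22 and 36 in shCtrl and 45, 57 and 35 in shANXA2. In CPM it was at 0.7789, 0.673 and 1.156 against 1.319, 1.726 and 1.212 (log2 fold change 0.70, SE 0.4, edgeR adjusted p = 0.643), with shCtrl 3 and shANXA2 3 almost touching.

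The library shANXA2 3 held the lowest value of 19 of the 33 genes, against 19.8% of all tested genes. These were 8 of the 18 sterol enzymes, 3 of the 5 regulators, all 3 genes of sterol handling and 5 of the 7 fatty acid genes. The library shCtrl 2 held the highest value of 15 of the 33 genes, against 25.7% of all tested genes, and shANXA2 2 that of 10, against 14.3%. The summed FPKM of the fatty acid branch, to which SCD contributed most, was likewise lowest in shANXA2 3, with 90.37, 97.54 and 89.75 in shCtrl and 94.93, 109.8 and 66.64 in shANXA2.

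The estimates of all genes also moved with the GC content of their longest transcript. In 5 groups of equal size, the median log2 fold change went from -0.15 in the group of lowest GC (GC 23.08% to 40.61%) to 0.12 in the highest (57.82% to 75.97%). The 4 sterol enzymes that were lower in every shANXA2 library had a GC content of 36.9% to 46.52%, and the 3 that were higher had 58.98% to 64.18%. With a GC-dependent offset in the fit, chosen after seeing the data, all 7 estimates moved closer to 0 and kept their sign. Of the 33 genes, 19 moved closer to 0. The offset raises GC-poor and lowers GC-rich estimates, so for these 7 genes the direction of movement followed from their GC content. SQLE went to -0.45, MSMO1 to -0.27, SC5D to -0.38 and IDI1 to -0.21, while MVD went to 0.23, PMVK to 0.15 and TM7SF2 to 0.73. ABCA1 went to -0.43, and ELOVL6 moved away from 0, to 0.80. The median log2 fold change with this offset was -0.12 for the sterol branch and -0.10 for the fatty acid branch. Whether GC content, another property of the libraries or the label sets these differences was not tested.

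**Figure D3:**
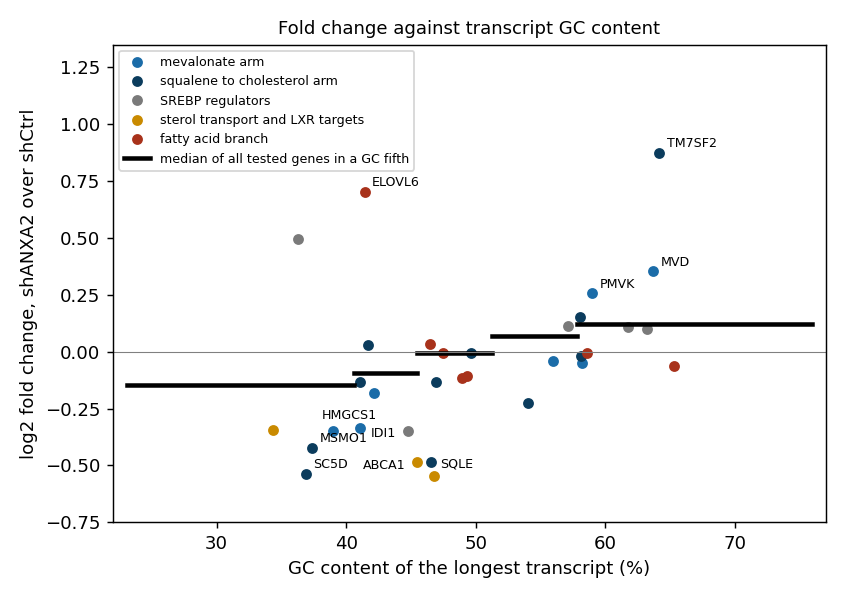
The horizontal axis is the GC content of the longest transcript in percent and the vertical axis the edgeR log2 fold change, each point is 1 of the 33 genes coloured by role, and black lines are medians of all tested genes in each of 5 groups by GC. The lines climb from -0.15 to 0.12, with SC5D, MSMO1 and IDI1 at the left below 0 and PMVK, MVD and TM7SF2 at the right above 0.

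Levels between genes were compared per length, in FPKM over the 6 libraries. FDPS was the most abundant at 100.2 ± 4.95 (SD, n = 6), followed by EBP at 75.31 ± 10, SCD at 48.43 ± 11.6 and ACAT2 at 39.26 ± 4.27. The rarest were MYLIP at 0.8467 ± 0.329 and ELOVL6 at 0.1617 ± 0.0519. Neighbours in this order mostly could not be ranked, since 28 of the 32 adjacent pairs had ranges that overlapped over the 6 libraries. The 4 pairs without overlap were FDPS and EBP, EBP and SCD, LSS and SREBF1, and MYLIP and ELOVL6. Their gaps were narrow, with the lowest FDPS library at 93.38 FPKM against the highest of EBP at 91.83. EBP and SCD were parted by 65.13 against 64.37 FPKM, and LSS and SREBF1 by 9.47 against 9.05 FPKM. The branches were interleaved in this order.

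**Figure D4:**
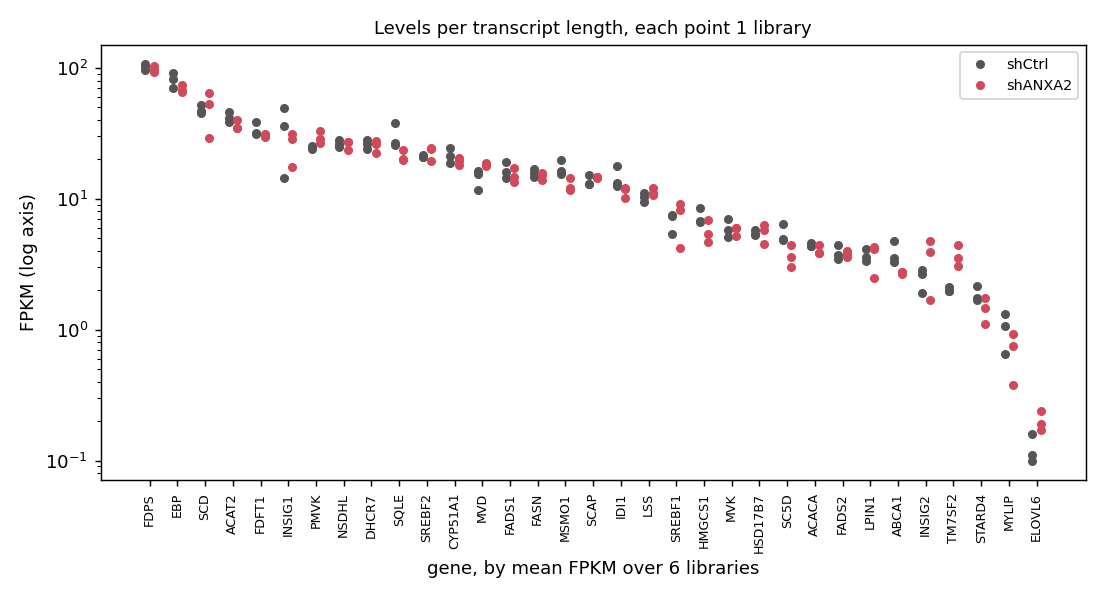
The horizontal axis holds the 33 genes, ordered by mean FPKM over the 6 libraries. The vertical log axis is the deposited FPKM, with 1 point for each of the 6 libraries by label. The range runs from FDPS at a mean of 100.2 to ELOVL6 at a mean of 0.1617, and for most neighbours the points overlap.

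Genes of the same pathways outside the 33 were described from 4 further lists, of which 51 genes were tested. These lists too were chosen with earlier results of these data known, so their shares are descriptive. edgeR called none, 6 had an unadjusted p under 0.05, all lower, and 9 separated by label. Those 9 are 17.6% of the 51, against 15.6% of all tested genes. By direction, 13.7% of the 51 separated lower and 3.92% higher, against 7.7% and 7.94% of all tested genes. At that unadjusted p, 4.32% of all tested genes were lower. Of 10 other sterol and isoprenoid genes, 6 had estimates above 0 and 4 below, with a median log2 fold change of 0.02. FAXDC2, a hydroxylase-family relative of MSMO1, had means of 0.94 against 1.339 CPM, and overlapped. Of 10 genes of SREBP processing and sterol-dependent degradation, 3 were above 0 and 7 below, with a median of -0.10. RNF145, a ubiquitin ligase of the sterol-sensing system, was at 63.62, 63.08 and 71.68 against 58.37, 67.78 and 44.96 CPM and overlapped.

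Of 11 tested genes of sterol uptake, storage and export, 7 were above 0 and 4 below, with a median of 0.01. SOAT1, which esterifies cholesterol for storage, overlapped at 112.9, 179.7 and 133.6 against 116.4, 126.7 and 113.2 CPM. STARD3, a late endosomal sterol carrier, overlapped at 19.43, 28.24 and 23.31 against 26.75, 27.2 and 26.7 CPM.

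Of 20 other fatty acid and glycerolipid genes, 15 had estimates below 0 and 6 were lower in every library labelled shANXA2 (30% of the list, against 7.7% of all tested genes), with a median log2 fold change of -0.20. ACSL3, which activates long-chain fatty acids on lipid droplets, was at 50.22, 61.06 and 50.75 CPM in shCtrl and at 38.18, 41.97 and 35.4 CPM in shANXA2 (log2 fold change -0.49, SE 0.122, edgeR adjusted p = 0.599). GPAM, the mitochondrial acyltransferase that begins glycerolipid synthesis, was at 17.91, 16.21 and 14.41 CPM against 12.25, 11.81 and 11.91 CPM (log2 fold change -0.43, SE 0.141, edgeR adjusted p = 0.599). In both genes every shANXA2 library lay below every control, with transcript GC contents of 37.06% and 41.05%, within the range of the lower sterol enzymes.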

How the data were processed

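Raw read counts per gene (26899 genes) and FPKM values (26803 genes) were deposited by the authors for the same 6 libraries. The submitters' processing notes name bcl2fastq, TopHat2, edgeR and GRCh38, while the sources used here give no versions, annotation or counting program, nor its use of strand. Groups followed the labels (3 shCtrl, 3 shANXA2). Counts were tested with edgeR 4.0.16 in R 4.3.3 (quasi-likelihood, TMM, default low-count filter with a minimum count of 10, 15299 genes, no covariates, two-sided, Benjamini-Hochberg threshold 0.05). CPM was computed from the counts with TMM factors of 0.9868 to 1.021, except for sums of marker genes, which used library totals alone. FPKM was used for levels between genes and for limma 3.58.1 as an alternative, beside DESeq2 1.42.0. Groups were said not to overlap where every CPM of one label lay above every CPM of the other. An exact permutation test of 3 against 3 libraries cannot go below p = 0.1. Depths of 24231267 to 34561675 reads limit genes of few reads such as ELOVL6.

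The 33 members and the other lists were chosen with earlier results of these data known. Named genes were all members, ANXA2 and, of each other list with no gene called, the 2 with the largest absolute fold change at a mean of at least 1 CPM over the libraries. One gene that this rule named is not reported here. VPS51 and the lists' marker genes were named after their values were seen. Of the lists, IDI2 and ABCG1 had no row and CH25H had too few reads. GC content came from the longest GENCODE 44 transcript, for 98.84% of the tested genes. Scripts were tested on simulated data.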

Additional observations from a re-analysis of the deposited data

How the results depend on the processing

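The 33 estimates were recomputed under 17 alternatives (RLE, upper-quartile and library-size scaling, no low-count filter, DESeq2, limma-voom, limma-trend on log2(FPKM + 1) with and without a filter and on log2(FPKM + 0.1), a replicate block, a GC offset added after seeing the data, and each library left out). Of 561 estimates, 526 had the same sign and call, 34 changed sign and 1 passed the threshold, and 23 genes never changed sign. Without the low-count filter 165 genes passed, 1 of them a member, and DESeq2 passed 31 genes. The filter sets the number of genes tested, and the prior degrees of freedom of edgeR were 5.234 with it and infinite without it. Leaving out 1 library gave 0 to 4 genes, the 4 without shANXA2 replicate 2, and 0 members. The median of the fatty acid branch ranged from -0.136 (without shANXA2 2) to 0.027, and that of the sterol branch from -0.145 (without shCtrl 3) to -0.042 (without shCtrl 2).

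Signs changed under upper-quartile scaling for NSDHL (0.011), FADS2 (0.009) and LPIN1 (0.007), under limma-voom for SCD (-0.036) and FADS2 (0.013), under limma-trend for SCD (-0.054, -0.057 with the smaller pseudocount and -0.054 without a filter), and under the GC offset for ANXA2 (0.015), SREBF1 (-0.046), SCAP (-0.016) and LPIN1 (0.013). Leaving out 1 library gave ranges through 0 for MVK (-0.153 to 0.089), NSDHL (-0.042 to 0.060), HSD17B7 (-0.072 to 0.153), DHCR7 (-0.084 to 0.069), SREBF1 (-0.104 to 0.372), INSIG1 (-0.703 to 0.051), SCD (-0.218 to 0.303), FADS2 (-0.088 to 0.108) and LPIN1 (-0.136 to 0.215). The causes were not tested.

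The labels do not say whether replicate numbers pair the libraries. Correlations of same-numbered deviations were -0.0616, 0.118 and -0.203, and shCtrl 2 alone correlated best with its own number among the controls. Deviations from the mean of a label depend on each other, so these correlations cannot decide whether the libraries were paired. With the replicate block 0 genes passed (1076 at an unadjusted p under 0.05), SCD was at -0.040 and FADS2 at 0.002, and the medians were -0.087 for the sterol and -0.044 for the fatty acid branch.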
